A study of Drosophila melanogaster with 16 samples.

Results

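The genes described here set how readily a neuron fires and how it releases transmitter. They comprise voltage-gated and inwardly rectifying ion channels, the proteins that dock, fuse and retrieve synaptic vesicles, and the genes for making transmitter and loading it into vesicles. They were chosen by name, as the probes that carry the symbol of 1 of 45 listed genes. Of the 45 genes, 43 were found under the listed names, with 113 of the 32162 probes on the array. The 2 others, Hk and VGAT, are on the array under other names (hk or CG34319, and CG8394), and their values are given beside the list. RNA came from antennae and brains of female Drosophila melanogaster aged 5 to 7 days, either starved for 28 h or fed with access to sucrose (0 h of starvation). Each tissue and condition had 4 arrays, and each array had its own extract of 100 antennae or 50 brains from 50 flies. The labels name no strain and say that different flies were used for each of the 4 experiments. Whether the antennae and brains of a replicate came from the same flies is not stated. All 43 genes were bright enough to be tested in every comparison, although some of their dimmer probes were not.

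As background, a neuron fires when voltage-gated sodium channels open, and potassium channels end the spike and set the interval to the next. At the terminal, calcium channels of the active zone admit calcium, synaptotagmin senses it, and the SNARE proteins fuse the vesicle with the membrane before dynamin and its partners retrieve it. The sensory neurons of the fly antenna are mostly cholinergic, and their cell bodies lie in the antenna while their terminals lie in the antennal lobe of the brain. The brain also holds large populations of GABAergic and glutamatergic neurons.

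Values are log2 normalized intensities, each spot's signal being divided by the 75th percentile of its array before the log2 was taken. A level is meaningful only against the same probe in another array, so probes are not ranked by brightness here. Between 65.4% and 73.6% of the spots of an array were well above background, and no spot was saturated. The tissues carried their own markers, with all 10 antennal genes (odorant receptors, their co-receptors and odorant-binding proteins) higher in fed antennae than in fed brain and all 20 brain neuropeptide genes lower. Other tissues left signal in both. Of 10 photoreceptor genes 9 were lower in fed antennae, with a median of -0.68. Their summed level was 160 to 225 in fed antennae and 266 to 362 in fed brain, in units of the 75th percentile. All 9 muscle genes were higher in fed antennae, with a median of 1.53. The source of these signals was not tested. A gene was counted by its brightest probe and was called at an adjusted p under 0.05 (limma, Benjamini-Hochberg over all probes). With 4 arrays a group precision is limited, and the p-values measure the spread between these extracts.

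The antennae had less message than the brain for most of these genes. In fed flies 34 of the 43 genes were lower in the antennae, 4 were higher and 5 were not called. Over all 16371 genes tested 41.4% were called lower and 33.3% higher (41.8% and 33.1% of single probes, beside 80.5% and 3.54% of the 113 probes of these genes). Shares of all genes given below are likewise over the genes tested in each comparison. The median difference of the 43 genes was -1.12 on the log2 scale, beside -0.13 for all probes tested. In starved flies 36 genes were lower, 5 were higher and 2 were not called, beside 40.3% lower and 36.3% higher over all genes, and the median was -1.05. These are different arrays of the same contrast, and 34 genes were called lower and 4 higher in both. The 6 pan-neuronal markers (elav, fne, nrv3, jeb, Appl and futsch) were also all lower in fed antennae, with a median of -1.15 and a range of -1.34 to -0.39. In whole tissue, fewer neurons and less message per neuron cannot be told apart.

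**Figure D1:**
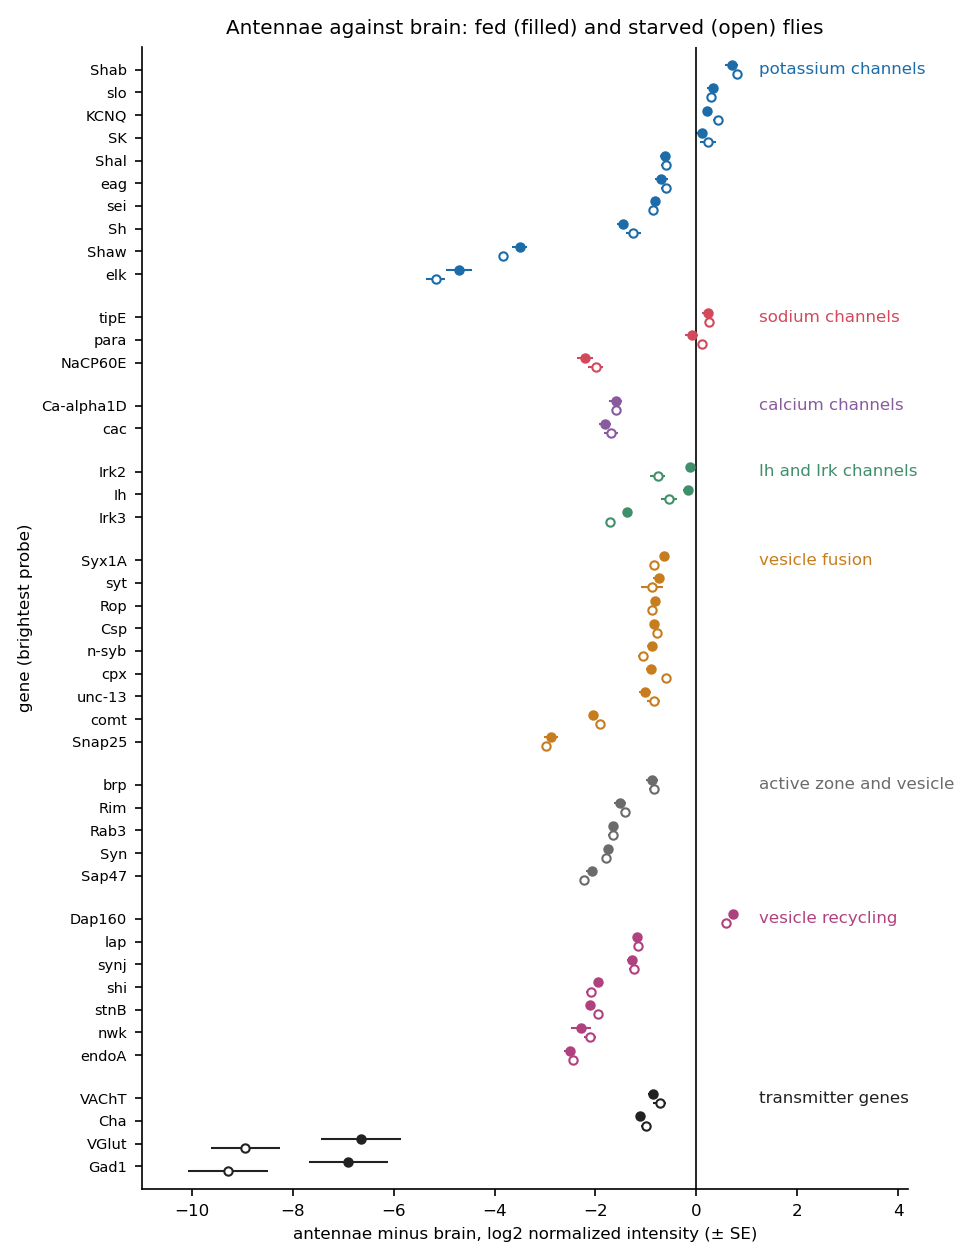
Difference between antennae and brain for the brightest probe of each of the 43 genes (horizontal axis, log2 normalized intensity, antennae minus brain, ± SE; vertical axis, genes grouped by role; 4 arrays per group). Filled circles are fed flies and open circles starved flies. Most genes lie left of 0, with Gad1 and VGlut farthest at -6.90 and -6.65 in fed flies, and Dap160 and Shab lie to the right in both conditions.

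The transmitter genes split by transmitter. Gad1, which makes GABA, and VGlut, which loads glutamate into vesicles, were the 2 lowest of the 43 genes in the antennae. Gad1 was at 5.00, 5.09, 5.21 and 5.22 in the 4 fed brain arrays and at -0.04, -0.61, -2.37 and -4.07 in the fed antennae. The fed antennal mean was 0.836% of the fed brain mean (difference -6.90, SE 0.79, adjusted p = 6.37e-05 by limma). VGlut was at 2.88, 2.94, 2.98 and 2.87 in fed brain and at -1.88, -2.83, -4.08 and -6.13 in fed antennae, which is 0.997% of the brain mean (difference -6.65, SE 0.79, adjusted p = 8.34e-05 by limma). For both genes the tissues did not overlap, the brain arrays lay close together and the antennal arrays were widely spread. VGAT, the vesicular GABA transporter, was 1.34% of its brain level in fed antennae, where 2 of the 4 arrays were well above background. In starved antennae no array detected VGAT well above background, and its mean level was at least 108-fold lower than in starved brain (adjusted p = 1.56e-07 by limma). For such a bound each antennal array gives the probe's own signal or, if higher, the dimmest signal well above background on that array. The mean of these is set against the brain mean. Single starved antennal arrays ranged from 0.43% to 1.40% of the starved brain mean for VGAT.

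The cholinergic genes were present in both tissues. Cha, the choline acetyltransferase now named ChAT, was at 2.0, 2.14, 2.16 and 2.08 in fed brain and at 0.92, 0.99, 0.99 and 1.01 in fed antennae. That is 46.0% of the brain mean (difference -1.12, SE 0.07, adjusted p = 1.30e-06 by limma). VAChT, which loads acetylcholine and shares its locus with Cha, was at 2.86, 2.97, 2.87 and 3.00 in fed brain and at 2.01, 2.08, 1.91 and 2.26 in fed antennae, or 55.1% of the brain mean (difference -0.86, SE 0.09, adjusted p = 4.30e-05 by limma). The arrays of each group lay close together for both genes and the tissues did not overlap.

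The antennal spread of the GABA and glutamate genes is given beside that of the brain neuropeptide genes. In fed antennae Gad1 was at 2.78%, 1.87%, 0.552% and 0.170% of the fed brain mean in replicates 1 to 4. The median of the 20 neuropeptide genes in the same arrays was 3.29%, 1.76%, 1.07% and 0.302%. In starved antennae Gad1 was at 0.0848%, 0.0956%, 1.07% and 0.0747% of the starved brain mean. The neuropeptide median there was 0.268%, 0.280%, 1.02% and 0.240%. These medians include dim probes, since 9 to 19 of the 20 neuropeptide genes were well above background in a fed antennal array, and in starved antennae 14 were in replicate 3 and 7 in each of the others. Over the 7 genes that were well above background on all 8 antennal arrays, the median was 5.79%, 2.72%, 1.83% and 1.85% in fed and 1.06%, 1.05%, 1.23% and 1.42% in starved antennae. Fed replicate 1 was thus the highest among the fed antennae for Gad1 and for the neuropeptide genes by either median. Starved replicate 3 was the highest among the starved for Gad1 and for the median of 20, but not for that of the 7 detected genes. VGlut ran from 0.189% to 3.60% in fed and from 0.0604% to 0.862% in starved antennae, with its highest values in fed replicate 1 and starved replicate 3, and was not well above background in starved replicate 2. Cha, in contrast, stayed between 44.3% and 52.4% over all 8 antennal arrays. The source of the Gad1 and VGlut signal in the antennal extracts was not tested.

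**Figure D2:**
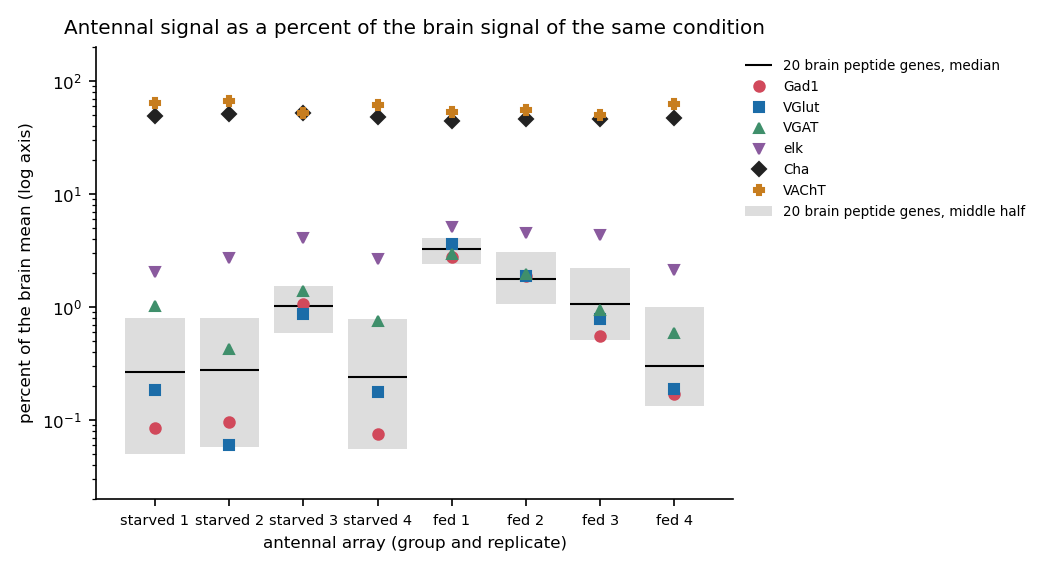
Antennal signal as a percent of the mean brain signal of the same condition (vertical axis, log scale) in each of the 8 antennal arrays (horizontal axis). Symbols are single genes, the black line is the median of 20 brain neuropeptide genes and the grey box their interquartile range. Gad1 and VGlut are highest in fed replicate 1 and starved replicate 3 of their groups, as is the median of the 20 genes (many of them not well above background in starved antennae), whereas Cha and VAChT stay between 44.3% and 66.4%.

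Among the channels, the potassium channels ranged most widely between the tissues. Of the 10 potassium channel genes, with the inward rectifiers left aside, 6 were lower in fed antennae, 3 were higher and SK was not called. The lowest was elk, a channel of the ether-a-go-go family, at -1.03, -0.68, -0.90 and -0.99 in fed brain and at -5.19, -5.35, -5.43 and -6.46 in fed antennae. It stood at 3.83% of the brain mean (difference -4.71, SE 0.26, adjusted p = 7.57e-07 by limma). Its second probe was not well above background in any antennal array and gave a bound of at least 10.3-fold lower. Shaw, a voltage-gated potassium channel, was at 1.99, 1.82, 1.95 and 1.72 in fed brain and at -1.20, -1.72, -1.73 and -1.89 in fed antennae, or 8.80% of the brain mean (difference -3.51, SE 0.15, adjusted p = 1.62e-07 by limma). For both probes every antennal array lay far below every brain array. The second Shaw probe was less reduced, at 46.7% of the brain mean (difference -1.10, SE 0.16, adjusted p = 0.000340 by limma), so the size of the Shaw difference depends on the probe. Sh, the founding A-type channel, was 36.3% of brain, and eag, Shal and sei were between 57.0% and 65.1%. The 2 other Shal probes were more reduced, with a median difference of -1.87 beside -0.62 for the brightest. All 3 were called lower, so the size of the Shal difference also depends on the probe.

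Shab, the delayed rectifier, was higher in fed antennae by its listed probe, at -0.41, -0.59, -0.32 and -0.28 beside -1.03, -0.85, -1.12 and -1.40 in fed brain (difference 0.70, SE 0.13, adjusted p = 0.00110 by limma). The groups did not overlap. A further probe of the same gene, named CG9965 on the array, was the opposite, at 25.9% of the brain level (difference -1.95, adjusted p = 1.73e-05 by limma), so the direction for Shab depends on the probe. The calcium-activated channel slo was slightly higher at 1.54, 1.83, 1.68 and 1.73 in fed antennae beside 1.46, 1.58, 1.34 and 1.12 in fed brain (difference 0.33, SE 0.11, adjusted p = 0.0297 by limma), and the groups overlapped. KCNQ, the M-type channel, differed by 0.22 (SE 0.09, adjusted p = 0.0467 by limma). The calls of slo and KCNQ in fed flies were both lost when fed antennae replicate 2, 3 or 4 or fed brain replicate 3 or 4 was left out, and that of KCNQ also without fed brain replicate 2, but both were called in starved flies with any array left out.

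The sodium channel gene para, its subunit gene tipE and the related NaCP60E differed among themselves. para, the main voltage-gated sodium channel of fly neurons, was at 1.97, 1.83, 1.92 and 1.85 in fed antennae and 2.17, 2.21, 1.97 and 1.60 in fed brain. The difference of -0.09 had a 95% interval of -0.41 to 0.22, and in starved flies the difference of 0.11 had an interval of -0.08 to 0.30. tipE, an auxiliary subunit of para, was at 1.88, 1.91, 1.79 and 1.98 in fed antennae and 1.55, 1.93, 1.69 and 1.48 in fed brain. Its difference was 0.23 in fed flies (interval -0.02 to 0.48) and was called in starved flies at 0.26 (SE 0.08, adjusted p = 0.0130 by limma). NaCP60E, a second channel related to para, was only 21.7% of its brain level in fed antennae (difference -2.20, SE 0.16, adjusted p = 3.78e-06 by limma), and all 7 of its probes were called lower. For SK, a small-conductance calcium-activated channel, the difference was 0.10 in fed flies (interval -0.15 to 0.36).

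The calcium channel genes were lower in the antennae, cac, the channel of the active zone, at 28.5% and Ca-alpha1D, an L-type channel, at 33.0% of brain in fed flies. Of the remaining channels Irk3, an inward rectifier, was at 38.7%, whereas Irk2 and Ih, the hyperpolarization-activated channel, were not called in fed flies (91.5% and 88.9% of brain). Both were called lower in starved flies, at 58.9% and 68.8% of brain. A further probe of Ih, named CR30068 on the array, was at 64.1% of brain in fed and 73.1% in starved flies. The size of the Ih difference in fed flies thus depends on the probe.

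Of the 21 genes of vesicle release and recycling, 20 were lower in fed and in starved antennae. All 9 fusion genes and all 5 genes of the active zone and vesicle surface were among them. The SNARE gene Snap25 was the lowest of this set at 13.6% of the fed brain mean, followed by the endocytic genes endoA (17.6%), nwk (20.5%) and stnB (23.4%). Other fusion genes were less reduced, with Syx1A, the plasma membrane SNARE, at 63.7%, the calcium sensor syt at 59.8% (32.1% by its second probe) and n-syb, the vesicle SNARE, at 54.6%. brp, the scaffold of the active zone, was at 54.2% (37.3% by its other listed probe), while Sap47, Syn and Rab3, which sit on or near the vesicles, were between 23.8% and 32.0%. shi, the fly dynamin, was at 25.7%. The exception was Dap160, an intersectin that scaffolds dynamin, at -0.80, -0.76, -0.69 and -0.82 in fed antennae and -1.41, -1.40, -1.54 and -1.63 in fed brain (difference 0.73, SE 0.08, adjusted p = 4.60e-05 by limma). The groups did not overlap. Its other probe gave a difference of -0.77 (SE 0.12, adjusted p = 0.000336 by limma), so the direction for Dap160 is not settled by these probes. Dap160 was the only gene of the 43 whose listed probes were called in opposite directions between the tissues in fed flies, and 24 of the 32 genes with several probes had all of them called the same way.

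Outside the listed genes, 51 related genes of the same pathways were measured. In fed antennae 35 (68.6%) were lower and 7 (13.7%) were higher, beside 41.4% and 33.3% of all genes, with a median of -1.11. Fife, an active zone protein, was at -4.33 and Tomosyn, an inhibitor of SNARE assembly, at -2.45. The higher ones included Syb, the ubiquitous counterpart of n-syb (1.71), and Nsf2, a counterpart of comt (0.64). Among the channels Irk1 (1.35) and Slob, a binding partner of slo (1.30), were higher. Hk, the beta subunit of Sh, differed by -0.15 (adjusted p = 0.163 by limma), although Sh itself was lower.

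Starvation changed fewer of these genes and by less. In the antennae 6 of the 43 genes rose and 10 fell, beside 11.1% and 17.2% of all genes tested, and the median change of the 43 genes was 0.00. In the brain 6 rose and 10 fell, beside 11.6% and 20.9% of all genes, and the median was -0.01. The shares of the 43 genes were 14.0% rising and 23.3% falling in each tissue. These counts depend on the scaling of the arrays. With arrays centred on the median in place of the 75th percentile, the median change of all probes moved from -0.04 to 0.22 in antennae and from -0.09 to 0.18 in brain. Then 21 genes rose and 3 fell in antennae, beside 43.6% and 7.13% of all genes, and 16 rose and 1 fell in brain, beside 21.7% and 10.5%. Under that scaling all 6 increases of each tissue were kept, and of the decreases Shaw, n-syb and Sap47 were kept in antennae and NaCP60E in brain.

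Falling channel genes were much the same in both tissues. Sh, Shab, Shal, Shaw and eag, all voltage-gated potassium channels, and the para-related channel NaCP60E were called lower in antennae and in brain. That is 6 of the 18 channel genes (33.3%) in each, beside 17.2% of all genes in antennae and 20.9% in brain. Of the other channel genes only the inward rectifiers Irk2 and Irk3 were called by their brightest probes, and both were higher in both tissues. Neither calcium channel was called in either tissue. NaCP60E was at 1.30, 1.06, 0.54 and 0.94 in starved and 1.88, 1.50, 1.50 and 1.58 in fed antennae (change -0.66, SE 0.16, adjusted p = 0.0188 by limma). In brain it was at 3.02, 3.05, 2.91 and 2.84 in starved and 3.99, 4.01, 3.90 and 3.38 in fed flies (change -0.87, SE 0.15, adjusted p = 0.00452 by limma). Every starved array lay below every fed array in each tissue, and all 7 probes of NaCP60E gave changes below 0 in both tissues, 5 of them called in each.

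Shaw was at -2.22, -2.44, -2.35 and -2.22 in starved and -1.20, -1.72, -1.73 and -1.89 in fed antennae (change -0.67, SE 0.14, adjusted p = 0.0112 by limma). In brain it was at 1.52, 1.50, 1.53 and 1.57 in starved and 1.99, 1.82, 1.95 and 1.72 in fed flies (change -0.34, SE 0.08, adjusted p = 0.0148 by limma). The groups did not overlap in either tissue. Sh was at 2.26, 2.05, 2.11 and 2.46 in starved brain and 2.88, 3.14, 2.87 and 2.65 in fed brain (change -0.67, SE 0.13, adjusted p = 0.00761 by limma), again without overlap. In antennae Sh was at 1.19, 1.22, 0.78 and 0.70 in starved and 1.41, 1.48, 1.41 and 1.40 in fed flies (change -0.46, SE 0.13, adjusted p = 0.0291 by limma). The antennal call of Sh was lost when starved replicate 3 or 4 or any fed replicate was left out. Shab was at -1.69, -1.50, -1.70 and -1.52 in starved and -1.03, -0.85, -1.12 and -1.40 in fed brain (change -0.50, SE 0.12, adjusted p = 0.0171 by limma) and fell by 0.39 in antennae. Shab lost its brain call without starved brain replicate 3. Hk, the beta subunit of Sh that is outside the list, was also called lower in both, with changes of -0.51 in antennae (adjusted p = 0.010 by limma) and -0.72 in brain (adjusted p = 0.00168 by limma).

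Of the release genes, n-syb, Sap47 and brp were called lower in both tissues by their brightest probes. n-syb was at 2.23, 2.06, 1.94 and 2.22 in starved and 3.00, 2.65, 2.85 and 2.98 in fed antennae (change -0.75, SE 0.10, adjusted p = 0.00222 by limma). In brain it was at 3.14, 3.31, 3.21 and 2.99 in starved and 3.77, 3.68, 3.87 and 3.66 in fed flies (change -0.58, SE 0.09, adjusted p = 0.00363 by limma). The groups were apart in both tissues, and n-syb was represented by a single probe. Sap47 was at 2.28, 2.06, 2.07 and 2.12 in starved and 2.92, 2.50, 2.72 and 2.66 in fed antennae, again without overlap (change -0.57, SE 0.10, adjusted p = 0.00543 by limma), and its change in brain was -0.41 (SE 0.09, adjusted p = 0.0133 by limma). The second Sap47 probe changed by -0.27 in antennae and by 0.35, the opposite sign, in brain, and was called in neither. With the mean over its probes the brain call of Sap47 was lost. brp changed by -0.35 in antennae and -0.39 in brain, and its brain groups overlapped. Syx1A was called in antennae (change -0.34, adjusted p = 0.00393 by limma) and Csp, a vesicle chaperone, in brain (change -0.23, adjusted p = 0.0328 by limma). The SNARE partner Snap25 was called in neither tissue, with changes of 0.01 and 0.12.

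In brain the 2 largest increases were those of the inward rectifiers Irk2 and Irk3, while in antennae Irk2 had the largest and Irk3 the fifth of the 6. Irk2 was at 3.68, 3.21, 3.58 and 3.68 in starved brain and at 2.56, 2.48, 2.51 and 2.47 in fed brain (change 1.03, SE 0.11, adjusted p = 0.00105 by limma). All starved arrays were above all fed arrays. On each of the 4 slides, which held 1 array of every group, the starved brain was higher by between 0.73 and 1.21. In antennae Irk2 was at 2.85, 3.01, 2.74 and 2.49 in starved and 2.37, 2.51, 2.33 and 2.28 in fed flies (change 0.40, SE 0.11, adjusted p = 0.0311 by limma), with a slight overlap. Irk3 was at 2.29, 2.10, 2.09 and 2.21 in starved and 1.52, 1.44, 1.66 and 1.70 in fed brain (change 0.59, SE 0.09, adjusted p = 0.00289 by limma), without overlap, and rose by 0.25 in antennae (adjusted p = 0.0347 by limma). The second probe of Irk2 gave changes of -0.21 in antennae and 0.00 in brain and was called in neither, so the increase rests on 1 probe. Irk3 had a single probe.

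Among the recycling genes synj, the lipid phosphatase synaptojanin, rose in both tissues by its brightest probe. It was at 1.75, 1.83, 1.85 and 1.60 in starved and 1.37, 1.49, 1.38 and 1.48 in fed antennae (change 0.33, SE 0.07, adjusted p = 0.0146 by limma). In brain it was at 3.03, 2.83, 3.05 and 3.09 in starved and 2.56, 2.67, 2.80 and 2.83 in fed flies (change 0.28, SE 0.09, adjusted p = 0.0470 by limma). The antennal groups were clearly apart and the brain groups touched. The second synj probe changed by 0.05 in antennae and -0.10 in brain and was called in neither. With the mean over its probes synj was called in neither tissue. Dap160 was at -1.18, -1.33, -1.12 and -1.24 in starved and -1.41, -1.40, -1.54 and -1.63 in fed brain (change 0.28, SE 0.08, adjusted p = 0.0370 by limma). stnB, an adaptor of the stoned locus, rose by 0.24 in antennae, and Syn and Rop, the fly Munc18, rose by 0.26 and 0.24 in brain. Rab3, a GTPase of the vesicle, was at 1.81, 1.99, 1.95 and 1.69 in starved and 1.56, 1.69, 1.53 and 1.63 in fed antennae (change 0.26, SE 0.08, adjusted p = 0.0457 by limma), where the groups met. No gene of the recycling set was called lower by its brightest probe in either tissue, but dimmer probes were, with stnB at -1.17 in brain, lap at -0.31 in antennae and 2 of the 5 shi probes at -0.41 and -0.32 in antennae.

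These smaller increases were not stable to the loss of an array. In antennae synj and Cha, by their brightest probes, were the increases that were called with any 1 of the 8 arrays left out. Only 2 or 3 genes were called higher without starved replicate 1, 2 or 3 or fed replicate 3 or 4. In brain Irk2 and Irk3 were called with any array left out, and 2 or 3 genes were called higher without starved replicate 1, 3 or 4 or fed replicate 1, 2 or 3. Of the decreases, all but Sh were kept in antennae with any array left out. In brain NaCP60E, Sh, n-syb, Sap47 and Shaw were kept throughout by their brightest probes. The number called lower there was 5 or 6 without starved replicate 1 or 3 or fed replicate 1 or 3 and 13 without fed replicate 4. With the slide as a block the antennal call of Rab3 and the brain calls of synj, Dap160, Syn, Rop, Shal, brp and Csp were lost.

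**Figure D3:**
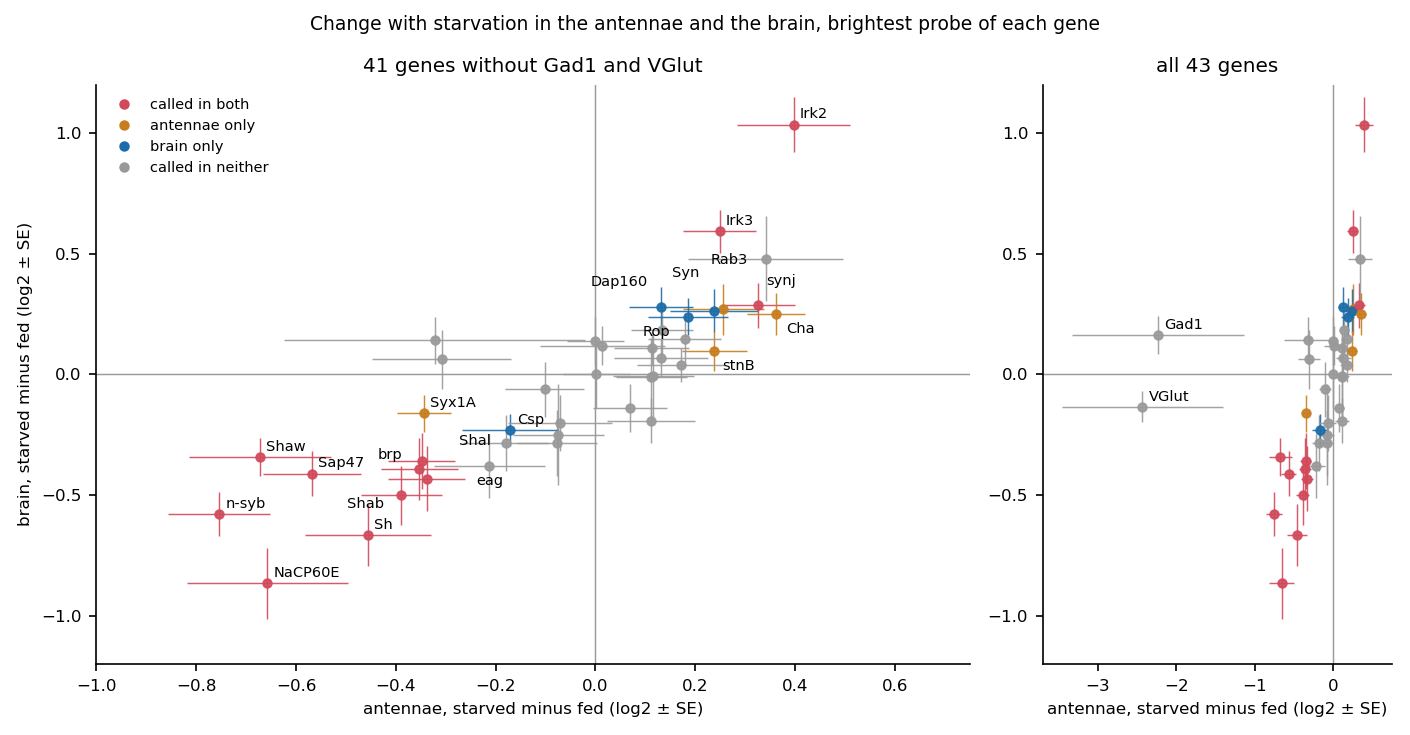
Change with starvation of the brightest probe of each gene in antennae (horizontal axis) and brain (vertical axis), in log2 normalized intensity, starved minus fed, ± SE (4 arrays per group). Colours give the tissues in which a gene was called. The left panel leaves out Gad1 and VGlut, whose antennal changes of -2.23 and -2.43 have wide errors. Sh, Shab, Shal, Shaw, eag, NaCP60E, n-syb, Sap47 and brp lie at the lower left, and Irk2, Irk3 and synj at the upper right.

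Of the transmitter genes only Cha was called with starvation by its brightest probe, and only in antennae. Cha was at 1.30, 1.37, 1.41 and 1.28 in starved antennae, above the fed values of 0.92, 0.99, 0.99 and 1.01 without overlap (change 0.36, SE 0.06, adjusted p = 0.00421 by limma). In brain it was at 2.32, 2.21, 2.31 and 2.53 in starved and between 2.0 and 2.16 in fed flies, and the change of 0.25 was not called (adjusted p = 0.0596 by limma). The second Cha probe gave the opposite sign, with changes of -0.40 in antennae (adjusted p = 0.0320 by limma) and -0.45 in brain (adjusted p = 0.00643 by limma). VAChT was at 2.07, 2.13, 1.77 and 2.01 in starved antennae and 2.92, 2.83, 2.41 and 2.74 in starved brain, and its changes of -0.07 and -0.20 were not called. Gad1 was at -4.91, -4.74, -1.25 and -5.10 in starved antennae, and VGlut at -6.30, -7.91, -4.07 and -6.36. Starved replicate 3 stood above the other starved arrays for both genes, and the starved and fed antennae overlapped. Their changes of -2.23 (95% interval -4.73 to 0.28, adjusted p = 0.155 by limma) and -2.43 (interval -4.77 to -0.09, adjusted p = 0.105 by limma) were not called. In brain Gad1 was at 5.38, 5.25, 5.26 and 5.27 in starved flies and VGlut at 2.82, 2.79, 2.77 and 2.75, and their changes of 0.16 and -0.14 were not called.

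**Figure D4:**
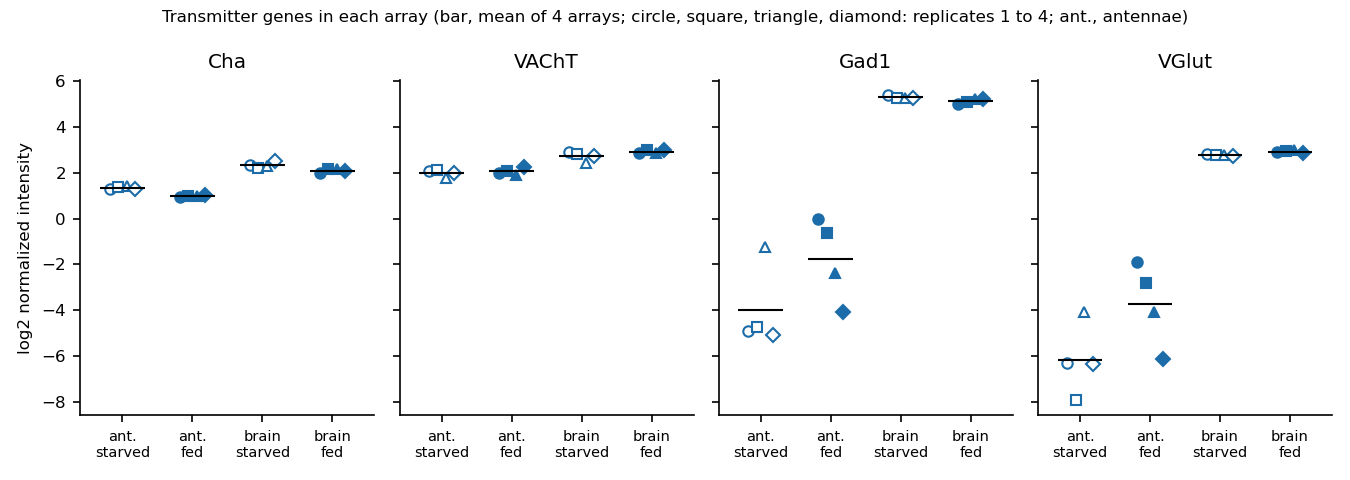
Level of the 4 transmitter genes in each array (vertical axis, log2 normalized intensity; horizontal axis, tissue and condition). Symbols mark replicates 1 to 4, starved open and fed filled, and the bar is the mean of 4 arrays. The brain arrays lie close together for every gene, while antennal Gad1 and VGlut range from -5.10 to -0.04 and from -7.91 to -1.88.

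Probes of 1 gene often gave different changes with starvation. Of the 107 probes of these genes tested in antennae 9 (8.41%) were called higher and 33 (30.8%) lower, beside 10.3% and 19.2% of all probes. Of 113 in brain 10 (8.85%) were higher and 30 (26.5%) lower, beside 11% and 22%. In antennae Cha, Rab3 and cpx, the complexin gene, had probes called in both directions, and in brain Csp, Syn and cpx did. Of the 8 cpx probes tested in antennae 2 were called higher and 1 lower, with changes from -0.60 to 0.39. Syn had changes of 0.26, 0.23 and -0.60 over its 3 probes in brain. In contrast, all 3 probes of Shal and both listed probes of brp were called lower in antennae. Both listed probes of Shab and both of Shaw were called lower in brain, and 3 of the 4 Sh probes in each tissue. Some genes not called by their brightest probe had a dimmer one that was, such as the lowest para probe with -0.58 in antennae and -0.65 in brain (adjusted p = 0.00305 and 0.0131 by limma). Of the dimmer probes of these genes 70.3% changed toward lower values than the brightest probe of the same gene in antennae, beside 61.6% over all genes, and 62.9% in brain, beside 66.2%. Across the 107 member probes tested in antennae the change correlated with the level at r = 0.38 (0.25 over all probes) and across 113 in brain at r = 0.46 (0.36 over all). These are descriptions over probes that share arrays and genes. When the probes of each gene were averaged, 1 gene rose and 13 fell in antennae and 3 rose and 8 fell in brain. The part of transcript isoforms or of probe brightness in this was not tested.

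**Figure D5:**
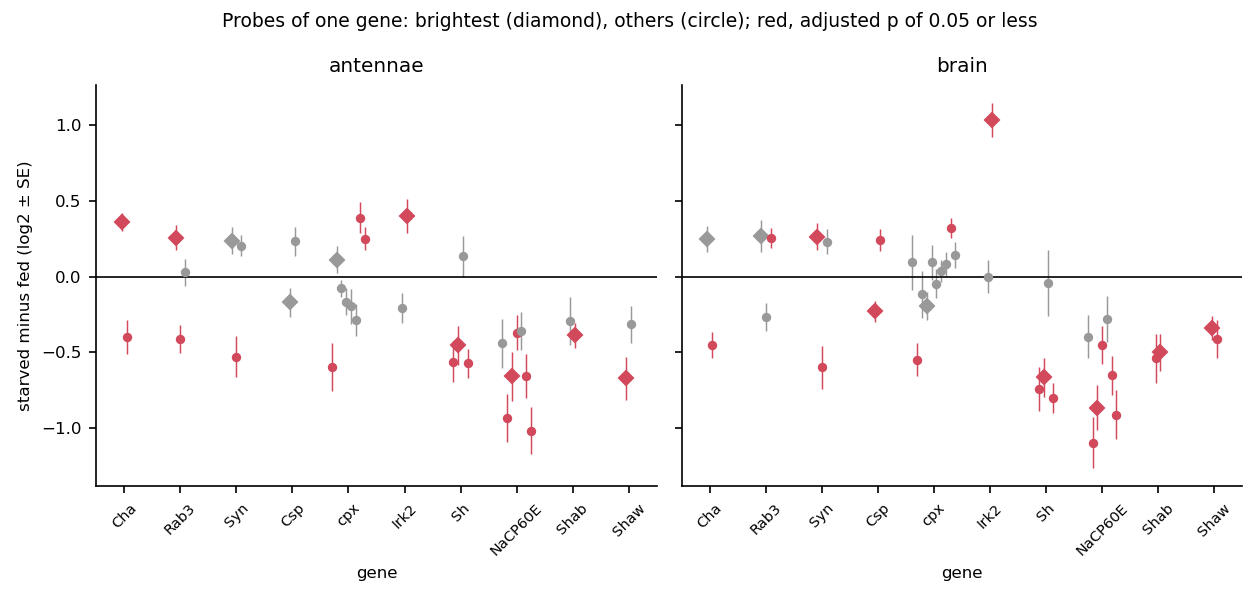
Change with starvation of every tested probe under the listed names of 10 genes in antennae and brain (vertical axis, log2 normalized intensity, starved minus fed, ± SE, 4 arrays per group; horizontal axis, gene). The further Shab probe named CG9965 is not drawn. Diamonds mark the brightest probe, circles the others, and red an adjusted p of 0.05 or less. The drawn probes of NaCP60E, Shab and Shaw all lie below 0, whereas those of Cha, Syn and cpx lie on both sides.

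The changes were compared between the 2 tissues. Of the 43 genes 34 (79.1%) had changes of the same sign, beside 75.7% of the 14166 genes tested in both tissues. In both tissues 3 were called higher (6.98%, beside 4.21% of all genes) and 9 lower (20.9%, beside 10.8%), and none was called in opposite directions, beside 0.205%. With the slide as a block, 9 of these 12 were called in both. The correlation of the changes over all 43 genes was r = 0.41 (Spearman 0.79), beside r = 0.53 (Spearman 0.66) over all genes. Without Gad1 and VGlut r was 0.83 over 41 genes, whereas no gene was left out of the value over all genes. The 2 comparisons share no array, but arrays of both tissues shared slides and may share flies. No gene was called in the test of the difference between the tissues (limma over 16 arrays), beside 1.44% of all genes higher and 1.79% lower, and 4 of the 43 genes had an unadjusted p under 0.05. Irk2 came closest, with a difference of -0.64 between the antennal and the brain change (95% interval -0.99 to -0.29, adjusted p = 0.0527 by limma). It passed the threshold with 5 of the 10 other settings, at adjusted p from 0.0225 to 0.131 over them. It also passed without starved antennae replicate 2 or without starved brain replicate 2.

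Other tissue markers moved with starvation as well. All 5 fat body genes that could be tested in brain (Yp1, Yp2, Yp3, Lsp1beta and Lsp2) were called higher in starved brain, and the summed level of the 7 listed ranged from 71.7 to 143 in starved and from 22.7 to 43.2 in fed brain, in units of the 75th percentile. Fbp1 was not well above background in any array. Of the 9 muscle genes Mlc2 and wupA were called higher and up was called lower in starved brain, with a median change of 0.03. Their summed level, in which bright probes weigh most, was 26.4 to 34.7 in starved and 16.3 to 24.5 in fed brain (exact permutation test, two-sided, p = 0.0286, the smallest that 4 against 4 arrays allow). Of the 7 glial genes alrm, repo and wrapper were called higher in starved brain. In starved antennae the fat body gene Lsp1beta was called higher, the muscle gene up and the photoreceptor gene norpA lower, and no glial gene. The 9 muscle genes had a median change of -0.55 there. Their summed level was 33.6 to 91.2 in starved and 53.0 to 83.2 in fed antennae. Of the 6 pan-neuronal markers Appl, futsch and jeb were lower in starved antennae and Appl, fne and jeb in starved brain. Their part in the changes described above was not tested.

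Of the 51 related genes 49 could be tested in antennae, where 1 was called higher (2.04%; Eps-15, an endocytic adaptor) and 5 lower (10.2%), beside 11.1% and 17.2% of all genes. In brain 7 of 51 (13.7%) were called higher and 7 (13.7%) lower, beside 11.6% and 20.9%. Rbp, which links calcium channels to the active zone, was lower in both tissues, at -0.58 in antennae (adjusted p = 0.00124 by limma) and -0.59 in brain (adjusted p = 0.00211 by limma). The T-type calcium channel Ca-alpha1T, the potassium channel SLO2 and the slo partner Slob were also lower in both. Ork1, a leak potassium channel, was higher in brain (0.82, adjusted p = 0.0128 by limma). None of the 51 was called in the difference between the tissues.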

How the data were processed

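Labelled RNA of 16 extracts was hybridized to one-colour Agilent arrays. The authors deposited scanner files, whose signal intensity per spot was background-subtracted by Feature Extraction 9.1 and not scaled between arrays. They also deposited log2 values, which are this signal over the 75th percentile of all spots of an array, used here as an alternative. For the main values, control spots were dropped and the 75th percentile was taken over the other 43603 spots. Outlier-flagged spots were then dropped, and the remaining spots of a probe were averaged. A probe was tested if at least 1 group had it well above background on each of its 4 arrays. Tests were limma 3.58.1 (R 4.3.3, with data.table at 1.17.8), two-sided, on the 8 arrays of a comparison (16 for the difference between tissues), adjusted by Benjamini-Hochberg over all probes. The methods' t-test was an alternative. The fitting code was tested on simulated data. A gene was represented by its brightest probe over all arrays, named through the RefSeq names of Release 6. Values per array were given for the 4 largest called increases and decreases with starvation in each tissue, the 4 highest and 4 lowest genes in fed antennae, and the transmitter genes. Values per array of other genes were added after they were seen. Probes were taken by gene name alone, but the list of genes and the other lists were chosen with earlier results of these data known. Other software was matplotlib 3.10.9, scipy 1.17.1, pandas 2.3.3, numpy 2.4.6 and Python 3.11.15.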

Additional observations from a re-analysis of the deposited data

Results flagged for a closer look

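In each group of 4 arrays, the highest or lowest array was set against the others by Dixon's ratio, the gap to the nearest array over the range of the group. Of 172 groups (43 genes in 4 groups) 8 exceeded the 95% critical value for 4 samples, which is 4.65%, and chance flags about 1 in 20. In starved brain replicate 3 was low for Rim (ratio 0.892), para (0.918) and Syx1A (0.876), replicate 2 was high for Csp (0.905) and replicate 1 was high for Gad1 (0.883). In fed brain replicate 1 was low for Syn (0.946). In antennae, starved replicate 3 was high for Gad1 (0.908) and fed replicate 2 was high for Sh (0.846). Without starved brain replicate 3 the brain calls of Shab, Shal, eag, Csp and brp among the decreases and of Rop, Syn, synj and Dap160 among the increases were lost.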

How the results depend on the processing

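The 34 genes lower in fed antennae than in fed brain stayed lower under all 12 other settings, and leaving out 1 array gave 34 to 35 lower and 2 to 4 higher genes in fed flies and 36 lower and 5 to 6 higher in starved flies. The increases with starvation were less stable. In antennae, 6 genes became 2 with no filter on dim probes, 21 with median centring, 1 with the mean over the probes of a gene, and 2 to 6 when 1 array was left out. In brain, 6 became 2 with the replicate block, 2 with no filter, 3 with quantile scaling, 16 with median centring, 3 with the mean over probes, and 2 to 8 without 1 array. The decreases in antennae were 3 with median centring and 9 to 10 without 1 array. In brain they were 6 with no filter, 6 with no background correction, 1 with median centring and 5 to 13 without 1 array. With the mean over probes, 1 gene in place of 4 was higher in fed antennae. The difference between tissues gave 1 lower gene with the filter on all arrays, with normexp, with no background correction, with quantile scaling and with the mean over probes, and 0 to 1 lower and 0 higher without 1 array. The cause was not tested. Arrays with the same replicate number, which is also the slide, correlated between -0.31 and 0.32 in their deviations. Arrays with other numbers reached up to 0.38. With 4 arrays a group these values cannot show whether the arrays are paired. With the replicate number as a block 5 genes rose and 10 fell in antennae, and 2 rose and 7 fell in brain. Under it 3 were higher and 34 lower in fed antennae, and 5 higher and 36 lower in starved antennae. Single genes changed sign as follows. Between the fed tissues SK was -0.0957 with quantile scaling and -0.0604 with the mean over probes, para was 0.0675 and Irk2 0.0338 with median centring, and Dap160 was -0.0235 with the mean over probes (-0.135 in starved flies). With median centring the brain changes of Csp, VGlut and VAChT were 0.0344, 0.130 and 0.0637, and the antennal change of VAChT was 0.184 (between -0.122 and 0.0046 when 1 array was left out, the highest without starved antennae replicate 3). With the mean over probes the brain changes were 0.0048 for Csp, -0.0353 for Syn and -0.102 for Cha, and the antennal changes were -0.0429 for Rab3, -0.0634 for stnB and -0.0184 for Cha. Gad1 in brain was -0.0071 with quantile scaling. Of the remaining values for single genes 2358 kept their direction and side of the threshold, 175 lost and 24 gained a call. Probes not well above background limit the antennal values of VGAT, VGlut and elk.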
